A study of Mus musculus with 2 samples.

Results

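The desert peaks are the sites of anti-Nr4a2 enrichment that lie far from every annotated gene. A peak was taken when its summit, the position of highest coverage, was on chromosomes 1 to 19, inside no gene record and more than 100 kb from both ends of every such record. Records were RefSeq genes of all kinds other than pseudogenes on the mm10 assembly. The rule used positions only, and found 595 desert peaks among the 6996 peaks of these chromosomes, a share of 8.50% with an exact 95% interval of 7.86 to 9.18%. The whole deposited list holds 7680 peaks.

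The list came from chromatin immunoprecipitation sequencing of BV2, a mouse microglial line made by immortalisation, with 1 anti-Nr4a2 library set against 1 library of input DNA that was not precipitated. The labels give no genetic change and no treatment for either library, while the names in the file header carry the tag H2O2 for both. Tags kept once duplicates were taken out numbered 20365794 in the ChIP library and 22520884 in the input. Since each kind has 1 library, no difference here can be set against a spread between cultures, no p-value across samples was computed, and all intervals cover counting error only and treat peaks as independent.

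Nr4a2, also called Nurr1, is an orphan nuclear receptor of the NR4A family, which binds DNA at extended half-sites of the nuclear receptor type and is made quickly after many stimuli. It is best known for its part in midbrain dopamine neurons, and in microglia it is known for restraining inflammatory genes. Gene deserts are long gene-free stretches that often border genes of development and cell adhesion, and some hold enhancers that act on a gene far away. The distance to a gene does not say which gene, if any, a bound site acts on.

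Desert peaks were low and of much the same height as peaks elsewhere. Summit height, which counts the ChIP tags that cover the summit once extended to fragment length, had a median of 10 tags in desert peaks and of 10 tags in the other 6401 peaks, with means of 10.2 and 10.4 tags. All but 27 of the desert peaks held 7 to 13 tags. A height of 11 tags was found for 119 desert peaks (exact 95% interval 16.9 to 23.4%) and for 16.2% of other peaks, and the intervals of the desert peaks at the other heights from 7 tags up covered the share of the other peaks.

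**Figure D1:**
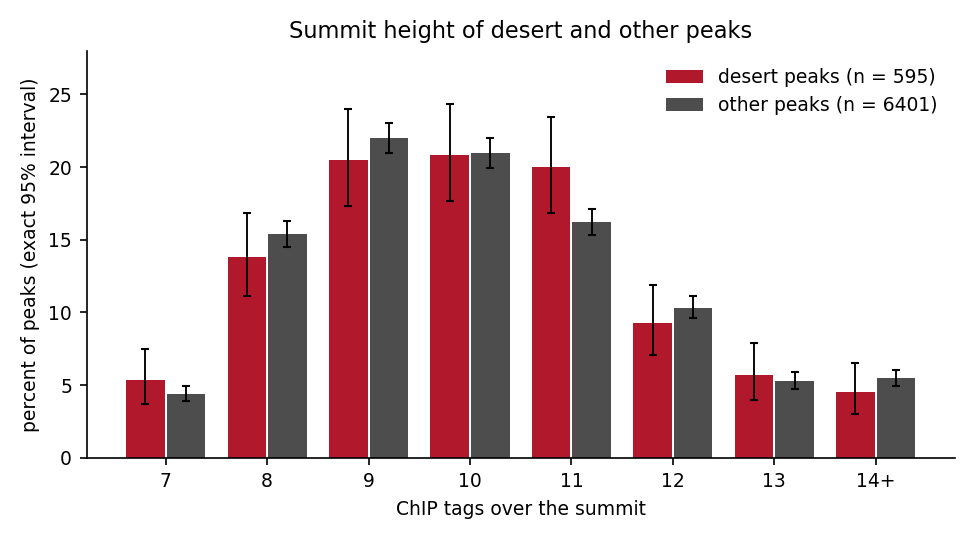
Percent of peaks (vertical axis) by the number of ChIP tags over the summit (horizontal axis), for desert peaks in red and other peaks of chromosomes 1 to 19 in grey, with exact 95% intervals. Both sets centre on 9 to 11 tags, and at 11 tags the interval of desert peaks, 16.9 to 23.4%, lies above the 16.2% of other peaks.

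The deposited fold enrichment is the summit height plus 1 over the local background plus 1. Its median was 3.88 in desert peaks (95% interval 3.59 to 3.92) and 3.59 in other peaks, and its mean was 3.82 ± 0.65 and 3.75 ± 0.62 (SD over 595 and 6401 peaks). The fold took few values, since heights are small whole numbers, so a median moves in steps. Desert folds ran between 1.78 and 6.46. Enrichment of at least 5-fold was found for 28 desert peaks, 4.71% (3.15 to 6.73%), and for 234 other peaks, 3.66%. The background over all 6996 peaks was 3.74%, which lies inside the interval of the desert peaks. A q-value of at most 0.05 was given to 326 desert peaks, 54.8% (50.7 to 58.8%), and to 3217 other peaks, 50.3%, beside 50.6% of all peaks. At a q of at most 0.01 the shares were 15.3% and 15.3%.

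Desert and other peaks differed in the background beneath them. The background was recovered from each height and fold, and its lowest possible value was 1.79 tags, the average expected over the genome. It was at this value under 359 desert peaks, 60.3% (56.3 to 64.3%), and under 3044 other peaks, 47.6% (46.3 to 48.8%). The share was higher in deserts on 12 of the 14 chromosomes that held at least 10 desert peaks. On the same 14 chromosomes the mean height was higher in deserts on 3 and the mean fold on 10.

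The strongest desert peak by fold was at chr12:94704070-94704260, in the desert beside Flrt2, which encodes a fibronectin and leucine-rich repeat membrane protein of cell adhesion and axon guidance. It held 17 tags over a background of 1.79, a 6.46-fold enrichment with a −log10 q of 5.46, and lay 675 kb from the nearest record, a small nuclear RNA gene. The next 2 peaks, both of 16 tags and 6.10-fold, were at chr8:62490330-62490538, between the annexin gene Anxa10 and Spock3, which encodes a testican proteoglycan, and at chr13:64608875-64609100, between Fam240b and Cntnap3, a neurexin-like gene.

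A pair of peaks had 15 tags and a fold of 5.74. One, at chr1:49767468-49767685, lay between Slc39a10, a zinc importer gene, and Tmeff2, which encodes a transmembrane protein with EGF-like and follistatin-like parts. The other, at chr3:71863344-71863537, lay 1025 kb from Sis, the sucrase-isomaltase gene of the intestine. A further peak of 17 tags and 5.51-fold, over a background of 2.27, was at chr3:90852058-90852321, 111 kb from Pglyrp4, a peptidoglycan recognition protein gene. The last 4 of the 10 highest folds had 14 tags and 5.38-fold, and were taken in chromosome order from a larger number with that value. They lay between Slc4a3 and Epha4 on chromosome 1, beside Sis on chromosome 3, beside Speer4f2 on chromosome 5, and between Arglu1 and Fam155a on chromosome 8. Among the 10 strongest peaks Sis was the only nearest coding gene named for 2 of them.

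Height and fold differed most at 1 site. The desert peak with by far the most tags, 75, at chr3:5860401-5860745 near Pex2, a peroxisome assembly gene, stood on a background of 41.6 tags and so had the lowest fold of all desert peaks, 1.78. No other desert peak had more than 17 tags. Peaks of 16 tags with a raised background were also found between Pcdh18 and Slc7a11, at 2.68 tags of background and 4.61-fold, and beside Mucl2 on chromosome 15, at 3.62 tags of background.

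Desert peaks were narrow. The median width was 181 bp (179 to 189 bp) in desert peaks and 191 bp (188 to 193 bp) in other peaks. The minimum of 164 bp, which is the fragment length used by the peak caller, was the width of 195 desert peaks, 32.8% (29.0 to 36.7%), and of 1871 other peaks, 29.2%. Widths of 300 bp or more were found for 50 desert peaks, 8.40%, and for 682 other peaks, 10.7%. At equal height the median was 203 bp in desert peaks and 222 bp in other peaks at 7 tags, and 185 and 197 bp at 9 tags. It was 168.5 and 184 bp at 10 tags, and 173 and 181 bp at 11 tags. The 95% intervals of both sets overlapped at each of these heights, as with 164 to 186 and 179 to 189 bp at 10 tags. The median was not lower in desert peaks at 8 tags, with 214 and 212 bp, or at 12 tags, with 184 and 180 bp. The widest desert peak, at chr2:47638787-47639371, was 585 bp wide and lay between Zeb2, a zinc-finger homeobox repressor gene, and Acvr2a, an activin receptor gene.

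Peaks were sparser in deserts than elsewhere. The sequence that meets the position rule came to 311 Mb in 1229 deserts, 12.9% of the annotated 2403 Mb. Its density was 1.91 peaks per Mb (exact Poisson 95% interval 1.76 to 2.07), and that of the rest 3.06 (2.99 to 3.14). The ratio of the first to the second was 0.625 (0.574 to 0.680). Unassembled stretches inside deserts were not taken out of these lengths, except for the placeholder at the start of each chromosome.

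The density followed the chromosome. Desert peaks were densest on chromosome 15 with 4.92 per Mb (3.87 to 6.17), chromosome 12 with 4.50 (3.58 to 5.59), chromosome 3 with 3.76 (3.07 to 4.56) and chromosome 19 with 3.26 (1.93 to 5.15). They were thinnest on chromosome 6 with 0.194 per Mb (0.0400 to 0.567), chromosome 10 with 0.215 (0.0443 to 0.627) and chromosome 7 with 0.330 (0.0680 to 0.964). Neighbours in this order had intervals that overlapped. Chromosomes 1, 3, 8, 12 and 15 together held 397 desert peaks, 66.7% of them, in 36.8% of the desert length. Chromosomes rich in desert peaks were also rich in other peaks, with a Spearman rho of 0.954 between both densities over the 19 chromosomes, which share 1 ChIP and 1 input library. Set against the other peaks of the same chromosome, the ratio over all deserts was 0.578 (0.533 to 0.626), and against those of the same 10 Mb bin 0.699 (0.644 to 0.757).

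**Figure D2:**
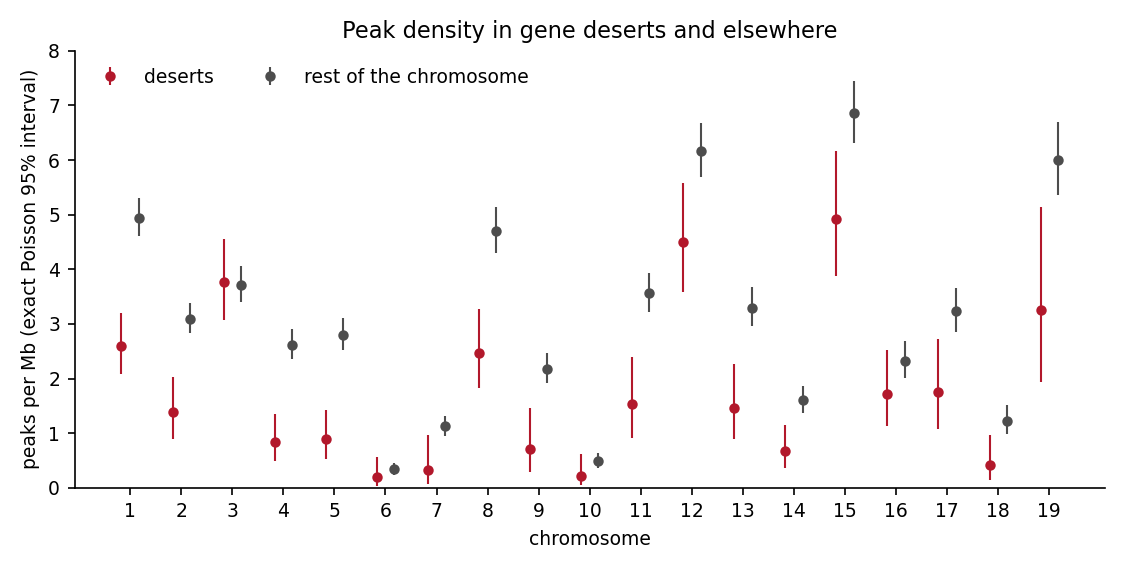
Peaks per Mb (vertical axis) on each chromosome (horizontal axis), in deserts in red and in the rest of the same chromosome in grey, with exact Poisson 95% intervals. The red point lies below the grey one on 18 of 19 chromosomes, and both fall to their lowest on chromosomes 6 and 10.

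The density was lower in deserts than in the rest on 18 of the 19 chromosomes, and the interval of the ratio lay wholly below 1 on 15. Chromosome 3 was the exception, with 3.76 peaks per Mb in deserts and 3.72 in the rest, a ratio of 1.01 (0.810 to 1.25). Its 2 fullest deserts border Pcdh18 and Pcdh10. Without this pair the chromosome held 68 desert peaks at 2.91 per Mb, and the ratio was 0.783 (0.599 to 1.01). Chromosome 12 had a ratio of 0.730 (0.573 to 0.921), and of 0.545 (0.408 to 0.716) without the fullest desert beside Flrt2. Leaving out deserts picked for their counts lowers the desert density by construction, while the rest of the chromosome was not trimmed. The lower ratios show only how much those deserts contributed.

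Most deserts held no peak. Of the 1229, 309 held at least 1, a share of 25.1%, and 184 of these held just 1 while 75 held 2. Length went with occupancy, since 38 of the 50 deserts over 1 Mb held a peak. The 61 peaks of the 3 fullest deserts made up 10.3% of desert peaks in 1.80% of the desert length.

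**Figure D3:**
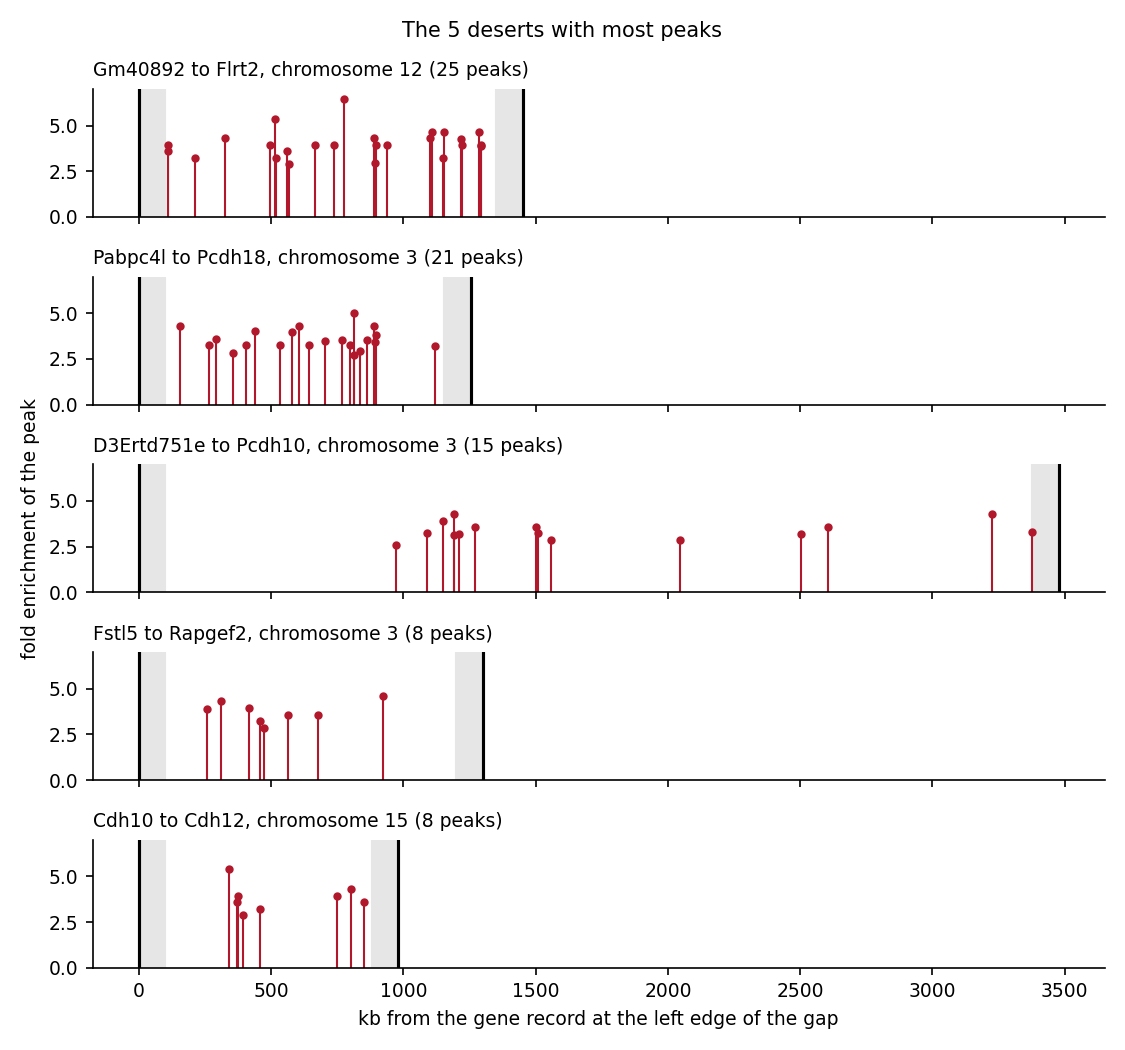
The 5 deserts with most peaks, each named by its flanking coding genes. The horizontal axis is the distance in kb from the gene record at the left edge of the gap, the vertical axis the fold enrichment of each peak, black lines the records at both edges and grey bands the 100 kb the rule leaves out; peaks spread over most of the first 2 deserts, while those beside Pcdh10 leave long stretches empty.

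The fullest was the desert on chromosome 12 between Gm40892 and Flrt2, with 25 peaks in 1251 kb, 19.98 per Mb (12.9 to 29.5). The other peaks within 5 Mb on either side came to 8.96 per Mb (6.96 to 11.4). Since the fullest deserts were picked for their counts, these values describe them and no local excess can be read from the intervals. Its peaks had 7 to 17 tags with a median of 10 and folds of 2.87 to 6.46, and 18 of the 25 had a q of at most 0.05. The desert on the far side of Flrt2, towards Galc, the gene of a lysosomal galactosylceramidase, held 7 peaks in 1257 kb.

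The second was the desert on chromosome 3 between Pabpc4l, a gene related to the cytoplasmic poly(A)-binding proteins, and Pcdh18, which encodes a protocadherin of homophilic cell adhesion. It held 21 peaks in 1055 kb, 19.9 per Mb (12.3 to 30.4), beside 10.2 per Mb (7.87 to 13.1) for the other peaks within 5 Mb. Peaks there were higher but not more enriched, with a median of 12 tags and a median fold of 3.50. The background under them had a median of 2.61 tags, beside 2.71 under the other peaks within 5 Mb, and was at the genome-wide value under 3 of 21. The background was raised over the desert and its surroundings alike, and its part in the density was not tested.

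The third, on chromosome 3 between D3Ertd751e and Pcdh10, another protocadherin gene, held 15 peaks in 3277 kb, 4.58 per Mb (2.56 to 7.55), beside 5.09 for the other peaks within 5 Mb, a value inside its interval. Its 15 peaks were weak, with 7 to 11 tags and 3 at a q of at most 0.05. A further 4 deserts held 8 peaks each. They lay between Fstl5, a follistatin-like gene, and Rapgef2, an exchange factor gene for Rap proteins, between the type II cadherin genes Cdh10 and Cdh12, between Csmd3 and Trps1, and between Khdrbs3 and Fam135b. Their densities were 7.27, 10.2, 8.73 and 6.89 per Mb.

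At the other end, 12 deserts over 1 Mb held no peak. The longest, 1981 kb on chromosome 9 between Cntn5, a contactin gene, and Jrkl, allowed at most 1.86 peaks per Mb, and the list held no other peak within 5 Mb of it. On chromosome 10 there were 3, between Hace1 and Grik2, Man1a and Tbc1d32, and Tafa2 and Slc16a7, where the other peaks within 5 Mb came to 0.324 to 0.708 per Mb. The empty desert with most peaks around it lay between Prmt6 and Amy2b on chromosome 3, with 4.16 other peaks per Mb (2.89 to 5.78). Around the remaining 11 the other peaks were fewer than the 3.06 per Mb of all sequence outside deserts.

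Within deserts no steady fall in density with distance from genes was seen. It was 1.95 per Mb (1.74 to 2.19) at 100 to 200 kb from the nearest record, with 301 peaks, and 1.73 (1.51 to 1.98) at 200 to 500 kb, with 214 peaks. It was 2.22 (1.72 to 2.82) at 500 to 1000 kb, with 67 peaks, and 4.11 (2.19 to 7.04) beyond 1000 kb, with 13 peaks. Without the 3 fullest deserts these values were 1.91, 1.56, 1.69 and 1.78, the last from 3 peaks (0.368 to 5.21), so the high value at the greatest depth rested on the desert beside Pcdh10.

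**Figure D4:**
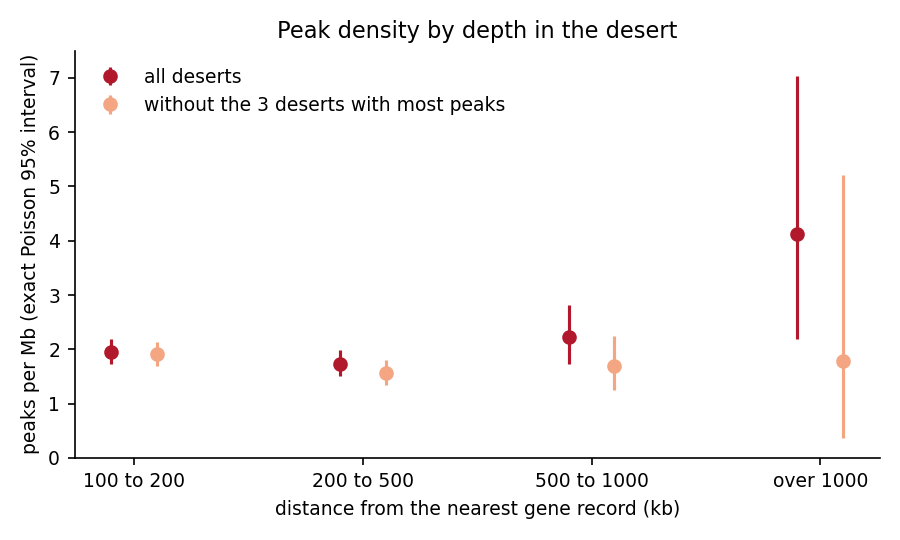
Peaks per Mb (vertical axis) by distance from the nearest gene record in kb (horizontal axis), for all deserts in red and without the 3 deserts with most peaks in orange, with exact Poisson 95% intervals. The red point beyond 1000 kb is at 4.11 and the orange one at 1.78 with an interval of 0.368 to 5.21.

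Height changed little with depth, the median being 10 tags in the 3 nearer bands and 9 tags beyond 1000 kb. The median distance of a desert peak to a record was 195 kb, and to a coding gene 369 kb. The record nearest to a desert peak was a long non-coding RNA gene for 254 (42.7%), a coding gene for 192 (32.3%), a small nuclear RNA gene for 64, a small nucleolar RNA gene for 63 and a microRNA gene for 20. The farthest peak, at chr3:43360089-43360274, was 1557 kb from any record and had 7 tags and a fold of 2.87, at the lowest height in the list. Of the 10 farthest, 9 lay between D3Ertd751e and Pcdh10, and the remaining one, at chr15:14601093-14601256 with 10 tags, lay between Cdh6 and Cdh9. Pseudogenes were not counted as genes, and 3 desert peaks lay inside one and 40 (6.72%) within 10 kb of one.

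At the limit of 100 kb, the 5 peaks just inside it lay 100.115 kb or slightly more from a record and had 10, 11, 13, 11 and 11 tags in order of distance. The 5 peaks just outside it lay 99.996 kb or slightly less from a record and had 9, 9, 9, 8 and 10 tags.

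Desert peaks lay farther apart than other peaks. The median distance to the nearest other peak was 104 kb (89.1 to 115.5) for desert peaks and 69.2 kb (66.9 to 72.4) for other peaks, and was longer for desert peaks on 12 of 14 chromosomes. The nearest peak was over 500 kb away for 12.3% of desert peaks and for 5.83% of other peaks. Another peak lay within 10 kb of 57 desert peaks, 9.58% (7.34 to 12.2%), and of 743 other peaks, 11.6%, a share inside that interval. Without the 3 fullest deserts the share of desert peaks was 5.62% (3.82 to 7.92%), so the share over all desert peaks leaned on those 3. Those 3 were picked for their counts, so a fall is built in and the lower share was not set against other peaks. Among desert peaks with a q of at most 0.05 the share with another peak within 10 kb was 5.21% (3.07 to 8.22%).

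**Figure D5:**
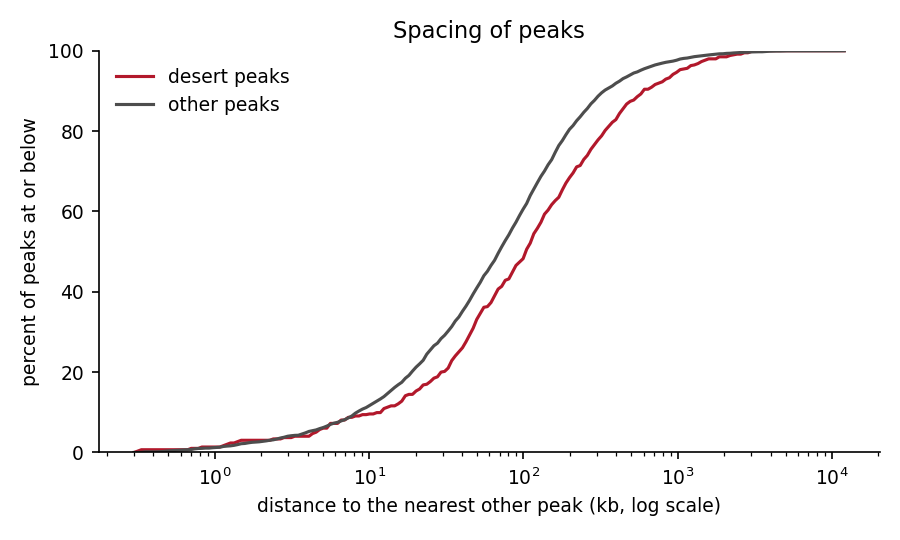
Percent of peaks (vertical axis) whose nearest other peak lies at or below a given distance in kb (horizontal axis, log scale), for desert peaks in red and other peaks in grey. Both curves run together up to about 10 kb, and beyond it the red curve lies to the right, with medians of 104 and 69.2 kb.

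Joining desert peaks within 10 kb of each other gave 26 groups of 55 peaks, of which 23 were pairs and 3 were triplets. Of the triplets, 2 lay in the desert on the left of Flrt2, within 6.43 and 7.71 kb, and 1 in the desert beside Pcdh18, within 8.12 kb. The closest pair of summits was 0.312 kb apart, at chr12:95927357-95928041 on the far side of Flrt2, with 8 and 10 tags. The next pair, 0.326 kb apart beside Tmeff2 on chromosome 1, had 11 tags in each peak. Pairs were also found beside Lrrc4c, a netrin-G ligand gene, Alk, a receptor tyrosine kinase gene, and Dab2, an endocytic adaptor gene.

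The coding genes on either side of a desert peak were counted next, whatever their distance. In all, 465 of the 20556 coding genes of these chromosomes, 2.26%, flanked at least 1 desert peak. Only 1406 coding genes border a desert at all, and 33.1% of these flanked a peak. The share went with the length of the bordering deserts, being 141 of 179 genes (78.8%) for those with over 1 Mb and 60 of 63 (95.2%) for those with over 2 Mb.

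Flrt2 flanked most, 34 desert peaks, the nearest 142 kb away. Pabpc4l flanked 32, Gm40892 flanked 31, Pcdh18 flanked 29, Pcdh10 flanked 20 and D3Ertd751e flanked 15, all beside the 3 fullest deserts. Csmd3, which encodes a large CUB and sushi domain protein of neurons, flanked 13 on chromosome 15. Brinp3, a neural gene inducible by bone morphogenetic protein and retinoic acid, flanked 12, and Slc39a10 and Tmeff2 flanked 11 each.

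Among the gene lists with at least 10 bordering genes, cadherins and protocadherins stood beside desert peaks most often. Of 33 listed genes 20 bordered a desert and 19 of these flanked a peak, while 33.1% of all bordering genes did. These genes also bordered long deserts, with a median of 2.11 Mb per gene beside 0.195 Mb for all bordering genes, and all 16 with over 1 Mb flanked a peak. Their deserts held 89 peaks at 2.46 per Mb (1.98 to 3.03), beside 1.91 per Mb (1.76 to 2.07) for all deserts. Without the deserts beside Pcdh10 or Pcdh18 they held 40 peaks at 1.30 per Mb (0.928 to 1.77). All deserts came to 1.79 per Mb (1.64 to 1.94) without the same ones. Those left out were picked for their high counts, which lowers the list more than all deserts. No lower density of the list can therefore be read from these values. After Pcdh18 and Pcdh10 the list was led by Cdh10 with 9 peaks and Cdh12 and Cdh9 with 8 each. Neighbouring members share peaks, since the 8 of Cdh12 also flank Cdh10, and 7 of the 8 of Cdh9 also flank Cdh6. The strongest of these, of 14 tags and 5.38-fold, lay between Cdh10 and Cdh12. Pcdh15 was the 1 bordering member with no peak.

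Synaptic adhesion and leucine-rich repeat genes flanked peaks at 11 of 28 bordering members (39.3%), with 76 peaks at 2.15 per Mb (1.69 to 2.69). Flrt2 gave 34 of these. Without the deserts beside it the list came to 42 peaks at 1.29 per Mb (0.930 to 1.74), and all deserts to 1.82 per Mb (1.67 to 1.98). Flrt2 was left out for its high count, so here too no lower density of the list can be read. The list was led by Flrt2 and Csmd3, followed by Lrrc4c with 6 peaks and Lrfn5, a synaptic adhesion gene, with 5. Axon guidance genes flanked peaks at 10 of 18 (55.6%), but with 14 peaks at 0.842 per Mb (0.460 to 1.41), below the density of all deserts. Their members with most peaks were Efna5, an ephrin gene, with 3, and the semaphorin gene Sema6d and the ephrin receptor gene Epha7 with 2 each. Single peaks of 14 tags and 5.38-fold lay beside the ephrin receptor genes Epha4 and Epha6, at 1567 and 1405 kb. The coding gene on the other side was nearer to each peak, Slc4a3 at 241 kb and Nsun3 at 717 kb.

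Developmental transcription factors flanked peaks at 9 of 29 bordering members (31.0%), with 17 peaks at 1.80 per Mb (1.05 to 2.89). Among them Meis1, a homeobox gene, flanked 3 peaks of 8 to 10 tags, at 340 to 665 kb. Ion channel and transmitter receptor genes did so at 7 of 24 (29.2%), with 14 peaks at 0.981 per Mb (0.536 to 1.65), led by the potassium channel gene Kcnv1 with 5 and the glutamate receptor gene Gria2 with 3. Both shares lay near the 33.1% of all bordering genes.

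Of all coding genes 6.84% border a desert, and the lists closest to microglia and to the receptor itself had 1 to 6 such genes each. Over all bordering genes 33.1% flanked a peak, and 52.0% of those with over 0.2 Mb of desert did. With 1 to 6 genes a list is too small to be set against these shares. Of 25 microglia identity genes 4 bordered a desert and 3 flanked a peak. Mef2c, a transcription factor of myeloid cells and neurons, flanked 3 of 8 to 10 tags at 538 to 1169 kb. Sall1, a repressor that marks microglia, flanked 2 of 11 and 12 tags at 910 and 1044 kb. Tox3, on the other side of the peaks beside Sall1, was nearer to both, at 159 and 293 kb. Ptprc, the CD45 gene, flanked 1 of 7 tags. Of 26 inflammatory genes 3 bordered a desert and 1 flanked a peak, Tlr4, the receptor for lipopolysaccharide, with 10 tags at 482 kb. Among 22 immediate early genes 4 bordered a desert and 2 flanked peaks. Myc, a growth regulator, flanked 5 of 8 to 11 tags at 393 to 518 kb, and Jun, an AP-1 subunit gene, 1 of 8 tags at 297 kb. Fggy, on the other side of the peak beside Jun, was nearer to it, at 208 kb. With 6 peaks the immediate early genes' deserts held 6.14 per Mb (2.25 to 13.4), 5 of them beside Myc on chromosome 15, the chromosome densest in desert peaks. All deserts came to 1.91 per Mb (1.76 to 2.07), and those of the immediate early genes to only 0.977 Mb of sequence. Without the deserts beside Myc, left out for their count, the list held 1 peak, at 1.75 per Mb (0.0443 to 9.75). All deserts came to 1.90 per Mb (1.75 to 2.06) without the same ones.

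Of 23 genes of the NR4A family and its nuclear receptor partners 6 bordered a desert and 2 flanked a peak. Nr4a2 itself flanked 1 peak of 8 tags and 3.20-fold, 1025 kb away, while Kcnj3 on the other side of that peak was nearer, at 484 kb. Rorb, a retinoid-related orphan receptor gene, flanked 1 of 8 tags at 366 kb. Nr4a3 bordered a desert of 0.107 Mb with no peak. Of 24 oxidative stress defence genes 1 bordered a desert, Slc7a11, the cystine and glutamate exchanger gene, with 2 peaks of 14 and 16 tags at 152 and 183 kb and folds of 2.72 and 4.61. None of 26 spliceosome and RNA processing genes bordered a desert. Of 1454 olfactory and vomeronasal receptor genes 19 bordered a desert. Of these 2 (10.5%), Vmn2r98 and Vmn2r99, flanked a peak of 11 tags that they share, beside 33.1% of all bordering genes. The 19 had a median of 0.0721 Mb of desert per gene, beside 0.195 Mb for all bordering genes.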

How the data were processed

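The study gave 1 anti-Nr4a2 ChIP library and 1 input library of BV2 cells, as a single list of peaks called on that pair. Per the submitters' processing notes, the build was mm10 and the tools Bowtie2, MACS2 2.2.6 and ChIPseeker. MACS 2.1.4 was run with a p-value cutoff of 0.001, a fragment length of 164 bp and 1 tag kept per position, per the file headers. The summit height is a coverage signal deposited by the authors, in extended ChIP tags. The deposited fold is height over local background, each plus 1. The deposited −log10 p-value and −log10 q-value compare height and background, and q was used as given although the header says that it was not calculated. Widths and positions are in bp, per the file headers. All these are the authors' values and serve to describe peaks within their list.

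Positions were compared with RefSeq records of GRCm38.p6, 37308 on chromosomes 1 to 19 after leaving out pseudogenes and 234 records placed in the unassembled first 3 Mb, which changed no membership. The table gives no strand, so distances are to either gene end. Background was computed from height and fold, and called genome-wide within 0.002 tags. Shares carry exact Clopper-Pearson, densities exact Poisson and medians exact order-statistic 95% intervals. Python 3.11.15, pandas 2.3.3, numpy 2.4.6 and scipy 1.17.1 were used, and the geometry was tested on simulated data.

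The members and the 12 gene lists were chosen with earlier results of these data known. Named were the 10 desert peaks of highest fold, of most tags and farthest from genes, the 5 fullest deserts, the 10 genes flanking most peaks and up to 4 genes per list. Other genes named, among them those of empty deserts, pairs and peaks of raised background, the widest peak, and Pcdh15, Nr4a3 and Epha6, were chosen after their values were seen. The same holds for Tox3, Kcnj3, Fggy and Nsun3, named as the nearer genes. A planned count of Nr4a binding words was not run, since no genome sequence was used here. Distance, gene records, peak threshold and joining distance were varied.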

Additional observations from a re-analysis of the deposited data

Results flagged for a closer look

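Chromosomes X and Y lay outside the rule. On chromosome X, 107 of 652 peaks met the same position rule, 16.4%, at 2.69 per Mb of desert (2.21 to 3.26), with a median fold of 3.77. One of them had 38 tags and a fold of 10.5, above the 6.46 that desert peaks of chromosomes 1 to 19 reached at most. On chromosome Y none of 4 peaks met the rule.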

How the results depend on the processing

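Of 46 values under an alternative, 20 stayed inside the interval of the reported value and 26 moved out of it or came from another threshold. No paired analysis was possible because there is 1 library of each kind and no test. The share of peaks in deserts was 14.4% with 50 kb from gene ends, 4.20% with 200 kb, 4.69% with pseudogenes counted as genes and 19.4% with coding genes alone. Among peaks with a q of at most 0.05 it was 9.20%, and with a fold of 5 or more 10.7%. For these 2 thresholds the median fold of desert peaks was 4.30 and 5.34, the median width 178 and 192.5 bp, and the share with another peak within 10 kb 5.21% and 0%. That share was 6.05% within 5 kb and 33.1% within 50 kb. The ratio of desert to other density was 0.682 at the q threshold and 0.805 at the fold threshold (0.523 to 1.19, from 28 peaks), so at the higher threshold a difference was not detectable. The share of bordering genes that flank a peak was 28.9% with 50 kb, 39.2% with 200 kb, 26.3% with pseudogenes, 41.2% with coding genes alone, and 23.3% and 3.34% at the thresholds. Added after seeing the data were the comparison within 10 Mb bins, with a ratio of 0.699, and the one within chromosomes. So were the densities of lists without the deserts beside named genes, and leaving out the 3 fullest deserts. Those 3 were picked for their counts, which lowers the share and the ratio by construction. Without them the share was 7.70%, the ratio 0.571 and the share within 10 kb 5.62%. The alternative window for the binding words was not run. Most desert peaks rest on 7 to 13 tags, and the part of sequencing depth in these heights was not tested.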
